A study of Mus musculus with 3 samples.

Results

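The enzymes described here make skin lipids, and their expression was followed in mouse skin through the first 2 days after cyclophosphamide. The 10 genes encode the desaturases Fads1, Fads2, Scd1, Scd2 and Scd3, the elongases Elovl3 and Elovl6, and the acyltransferases Dgat2, Dgat2l6 and Awat1. They were chosen as a group of genes known from lipid-producing skin glands, with earlier results of these data known. Counts of called genes among them are therefore no test of the group. Each was found in the data by its gene name in the tables or by exact match of its sequence tags to mouse transcripts. The 10 genes took 10 of the 20595 transcript clusters listed in any library, 1 cluster per gene. All 10 were among the 13812 clusters that were tested, those whose tags in the 3 libraries summed to at least 15.

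The study asked how gene expression in skin with growing hair responds to cyclophosphamide, an alkylating drug that damages dividing cells and causes hair loss. Whole skin came from male C57BL/6 mice aged 2 months whose hair had been removed 9 days before the injection, which starts a new round of hair growth. The day 0 library is from untreated skin, and the day 1 and day 2 libraries are from skin taken 1 and 2 days after 150 mg/kg cyclophosphamide into the abdominal cavity. No mutation or transgene is named in any group, and the depilation is shared by all. The number of mice behind a library is not given. There was 1 library per time, so no value below has a replicate error. The treated skins were also 1 and 2 days further into hair growth, and no untreated skin of those days is among the samples: the drug and the passage of time cannot be told apart.

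Sebaceous glands are small glands attached to the hair follicle whose cells fill with lipid, burst and release it as sebum, a mix rich in triacylglycerols, wax esters and sterol esters. Desaturases put double bonds into fatty acyl chains, elongases lengthen the chains, and acyltransferases join them to glycerol or to long-chain alcohols. The same enzymes serve other lipid-making cells of skin, such as the adipocytes under the dermis and the keratinocytes that build the water barrier, so a level in whole skin is a sum over several cell types. In such a bulk sample, fewer cells of a type and less RNA per cell cannot be told apart.

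Expression was read by digital gene expression tag profiling. Polyadenylated RNA was copied to cDNA and cut with NlaIII, which recognises CATG, and a second enzyme released the CATG with the 17 bases that follow it. A tag therefore marks 1 CATG site of a transcript, ideally the one nearest the 3′ end, and a count does not scale with transcript length. The main tags of the 10 genes are shown because every value below is a count of these short sequences and of others from the same transcripts. They run 5′ to 3′ on the sense strand, the capitals mark the NlaIII site, and sites are numbered from the 3′ end.
Fads1 site 1: CATGtctgtctttattacctt
Fads2 site 1: CATGagccaagagagaccagt
Scd1 site 2: CATGttatagacggcagttgg
Scd1 site 3: CATGttccaaagcaaggctac
Scd2 site 1: CATGcaggactccgtttcctt
Scd2 site 10: CATGgttgaaatctctcagct
Scd3 site 1: CATGtgtaccccttgtgtata
Scd3 site 8: CATGttgtatagtgtcctact
Elovl3 site 1: CATGatcttgaggatttgtgg
Elovl6 site 1: CATGaccgggctgggcttagc
Elovl6 site 15: CATGtgtaacaaatgccagcc
Dgat2 site 5: CATGggtgtctgtgggttatt
Dgat2l6 site 1: CATGtcattgtttaatgacaa
Awat1 site 1: CATGgaaggggcattaagagc

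All 14 lie in the 3′ UTR of the last exon of their gene, and none of them matches a CATG site of another annotated gene. The nearest such site of another gene differs by 2 to 4 bases, so the 3 closely related Scd genes were counted apart. The clusters of the 10 genes held 71 different tags, of which 10 matched no annotated transcript. Those 10 made up 22 of the 14900 copies.

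Levels are given as tags and as CPM, the count per 1000000 tags of the library total after TMM scaling, which evens out differences in composition between libraries. Each library pair was compared with a two-sided exact binomial test of the tags, with Benjamini-Hochberg adjustment over the 13812 clusters. A cluster was called when the adjusted p was 0.001 or less and the ratio was at least 2-fold. This test compares the reads of 2 libraries, not the conditions, and intervals cover counting error only. The 3 libraries held 2636804 to 2859653 tags assigned to clusters. The day 1 and day 2 ratios share the untreated library, so they are not separate measurements of a response.

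The group did not move as a block. On day 1, 2 of the 10 genes were called lower than in the untreated library, Fads2 and Scd3, and 0 were called higher. Over all clusters tested, 1.43% were called lower and 1.53% higher. The ratio was negative for 8 genes and positive for 2, with a median log2 ratio of -0.34 against -0.022 over all clusters. On day 2, 3 genes were called lower than untreated, Fads2, Scd2 and Dgat2, beside 3.08% of all clusters. Only Dgat2l6 was called higher, beside 3.45% of all clusters. The day 2 median was 0.15, against 0.0081 over all clusters, with 6 positive and 4 negative ratios. From day 1 to day 2, Elovl6 was called higher, beside 1.83% of all clusters, and Fads2 and Dgat2 were called lower, beside 1.11%. The median over the 10 genes was 0.34 in that comparison, against -0.012.

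**Figure D1:**
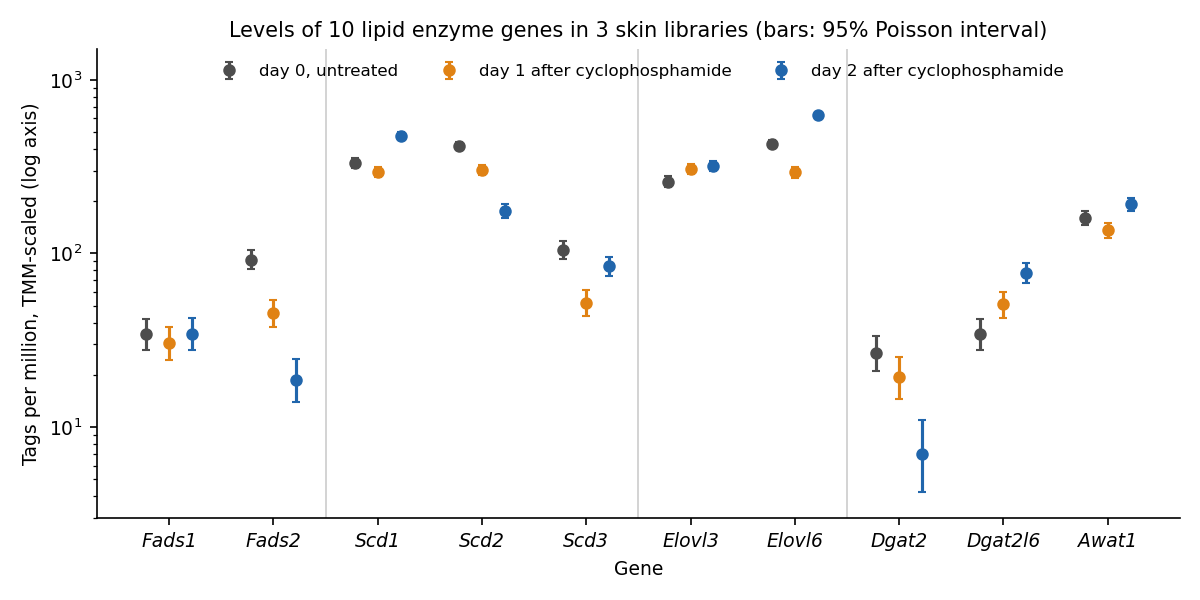
Level of each of the 10 genes in the untreated (day 0), day 1 and day 2 libraries, in TMM-scaled CPM on a log axis, with points for the single library of each day and bars for the exact 95% Poisson interval of its count. Fads2 steps down from 92.1 to 45.3 to 18.8, whereas Elovl6 goes from 427 to 294 to 625.

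Summed over the 10 genes there were 5301 tags in the untreated library, 4125 on day 1 and 5474 on day 2. These sums were 0.194%, 0.144% and 0.208% of the tags in the tables, or 1885, 1531 and 2013 CPM. The day 2 sum was thus 1.07 times the untreated sum, although single genes ranged from 0.205 to 2.23 times their untreated level.

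Fads1 and Fads2 encode the delta-5 and delta-6 desaturases, which act in turn on essential fatty acids to make long polyunsaturated chains. Fads2 performs the first step of that route. The genes are neighbours on chromosome 19, 81.1 kb apart in the GRCm38 annotation. Fads2 had 259 tags in the untreated library, 122 on day 1 and 51 on day 2, which is 92.1, 45.3 and 18.8 CPM. Its level was highest in untreated skin and lowest on day 2. The log2 ratio to untreated was -1.02 on day 1 (95% interval -1.35 to -0.71, exact test, adjusted p = 6.9e-10) and -2.28 on day 2 (-2.76 to -1.86, adjusted p = 1.6e-31). It fell again from day 1 to day 2, by 1.26 on the log2 scale (exact test, adjusted p = 8.7e-07). The ratio of day 2 to untreated was farther from 0 than that of any other of the 10 genes. The day 1 ratio was close to the 2-fold limit, and it was -0.999 when only tags with an exact match to 1 gene were counted, which ends that call.

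Site 1 of Fads2, whose main tag lies at chr19:10062879-10062899 on the minus strand, carried 235, 106 and 49 tags. The day 2 ratio of that site, -2.20 (-2.69 to -1.76), was like that of the whole cluster. The third site from the 3′ end, with 12, 3 and 2 tags, was also lowest on day 2. Site 7 had 8 tags untreated, 10 on day 1 and no listed tag on day 2. Its day 1 log2 ratio was 0.36 (-1.11 to 1.93), so it did not show the day 1 decrease. Fads1 gave a different picture, with 96, 82 and 94 tags, or 34.1, 30.4 and 34.6 CPM. Its 3 intervals overlapped. Its log2 ratios were -0.16 (-0.61 to 0.28) on day 1 and 0.02 (-0.41 to 0.44) on day 2. Its main tag lies at chr19:10196730-10196750 on the plus strand.

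The stearoyl-CoA desaturases put the first double bond into saturated chains and so make oleate and palmitoleate. Loss of Scd1 in mice is known for wasted sebaceous glands and hair loss, Scd2 is known from skin and brain, and Scd3 is known from sebaceous and Harderian glands. The 3 genes lie close together on chromosome 19, with 87.6 kb between Scd1 and Scd2 and 49.7 kb between Scd2 and Scd3. Scd2 had 1172 tags untreated, 816 on day 1 and 478 on day 2, or 417, 303 and 176 CPM. The 3 levels were separate and in descending order. Its log2 ratio was -0.46 (-0.59 to -0.33, exact test, adjusted p = 6.0e-11) on day 1, short of 2-fold, and -1.24 (-1.40 to -1.09, adjusted p = 3.1e-60) on day 2.

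Scd1 stood at 930, 796 and 1297 tags, or 331, 295 and 477 CPM, lowest on day 1 and highest on day 2. Neither ratio reached 2-fold. The log2 ratio was -0.16 (-0.30 to -0.02, exact test, adjusted p = 0.081) on day 1 and 0.53 (0.41 to 0.65, adjusted p = 2.9e-16) on day 2. Scd3, with 295, 140 and 229 tags or 105, 52.0 and 84.2 CPM, was lowest on day 1 and back near its untreated level on day 2. Its log2 ratio was -1.01 (-1.31 to -0.72, exact test, adjusted p = 6.6e-11) on day 1 and -0.32 (-0.57 to -0.06, adjusted p = 0.045) on day 2. Like that of Fads2, the day 1 call of Scd3 sat at the 2-fold limit, and the ratio was -0.99 with DESeq2's size factors or with the most counted tag alone, which ends it.

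Within the family, the make-up of the tags shifted. Scd2 was the most counted of the 3 genes in untreated skin, with 48.9% of their tags (Wilson 95% interval 46.9 to 50.9), against 38.8% (36.9 to 40.8) for Scd1. On day 1 the genes stood level, with 46.6% (44.2 to 48.9) for Scd2 and 45.4% (43.1 to 47.8) for Scd1. On day 2 Scd1 held 64.7% (62.6 to 66.8) and Scd2 23.9% (22.0 to 25.8). Scd3 made up 12.3% (11.1 to 13.7), 7.99% (6.81 to 9.35) and 11.4% (10.1 to 12.9). The summed level of the family was 852, 650 and 737 CPM, or 0.763 times untreated on day 1 and 0.865 times on day 2. These shares do not depend on how the libraries are scaled.

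**Figure D2:**
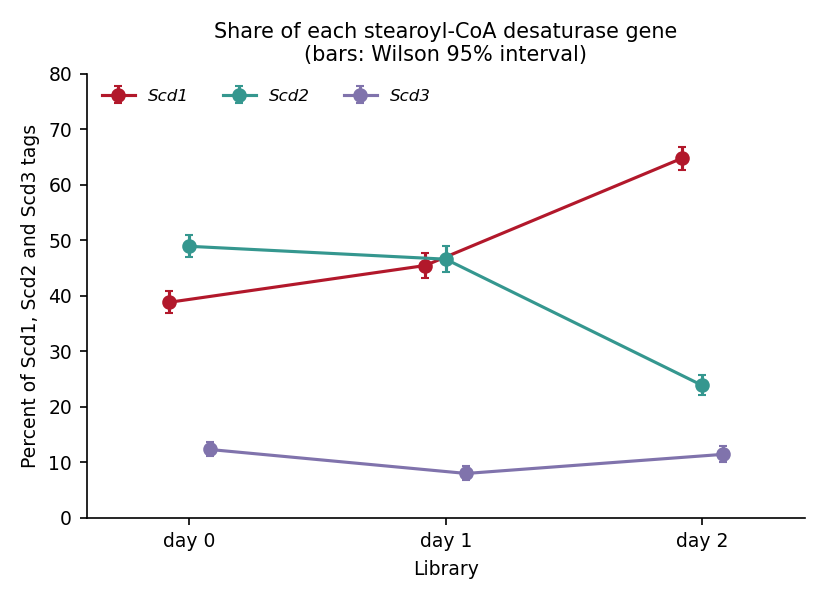
Share of each of Scd1, Scd2 and Scd3 in the sum of their tags, in percent, for the libraries of day 0, day 1 and day 2, with Wilson 95% intervals as bars and lines joining the days for reading only. Scd1 and Scd2 change places, from 38.8% and 48.9% in the untreated library to 64.7% and 23.9% on day 2.

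The single tags of the family add detail. Most tags behind the day 2 decrease of Scd2 were those of its site 1, at chr19:44306701-44306721, with 1036, 668 and 383 tags and a day 2 log2 ratio of -1.39 (-1.56 to -1.22). Its site 10, at chr19:44304694-44304714 and further inside the 3′ UTR, had 76, 93 and 65 tags and a day 2 ratio of -0.18 (-0.68 to 0.32). The ratio of site 10 to site 1 tags was 0.0734 (0.0573 to 0.0927) in the untreated library, 0.139 (0.111 to 0.173) on day 1 and 0.170 (0.128 to 0.221) on day 2. The untreated interval lies below those of both treated libraries. The other inner sites with at least 15 tags were mixed. Site 2 had 19, 11 and 16 tags, with a day 2 log2 ratio of -0.19 (-1.26 to 0.84). Site 3 had 11, 13 and 2 tags, with -2.16 (-5.63 to -0.21), and site 15 had 18, 22 and 5, with -1.70 (-3.58 to -0.32). On day 1 the ratios of sites 3 and 15 were 0.29 and 0.34, against 0.35 for site 10. The day 2 values of sites 3 and 15 rest on few tags. Site 1 held 84.6% of all Scd2 tags, so the inner sites bear little on the sum.

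Scd1 had no tag at its 3′-most site and was read at site 2, chr19:44395146-44395166, and site 3, chr19:44395511-44395531, both on the minus strand. Site 3 had 652, 503 and 834 tags and site 2 had 229, 229 and 390. On day 2 both were above untreated, with log2 ratios of 0.40 (0.25 to 0.55) and 0.82 (0.58 to 1.06). Scd3 was read mainly at site 8, chr19:44241937-44241957, with 183, 88 and 134 tags, and at site 1, chr19:44243416-44243436, with 101, 44 and 75. The ratio of site 8 to site 1 was 1.81, 2.00 and 1.79, with overlapping intervals, so both sites of Scd3 showed the low day 1 level.

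**Figure D3:**
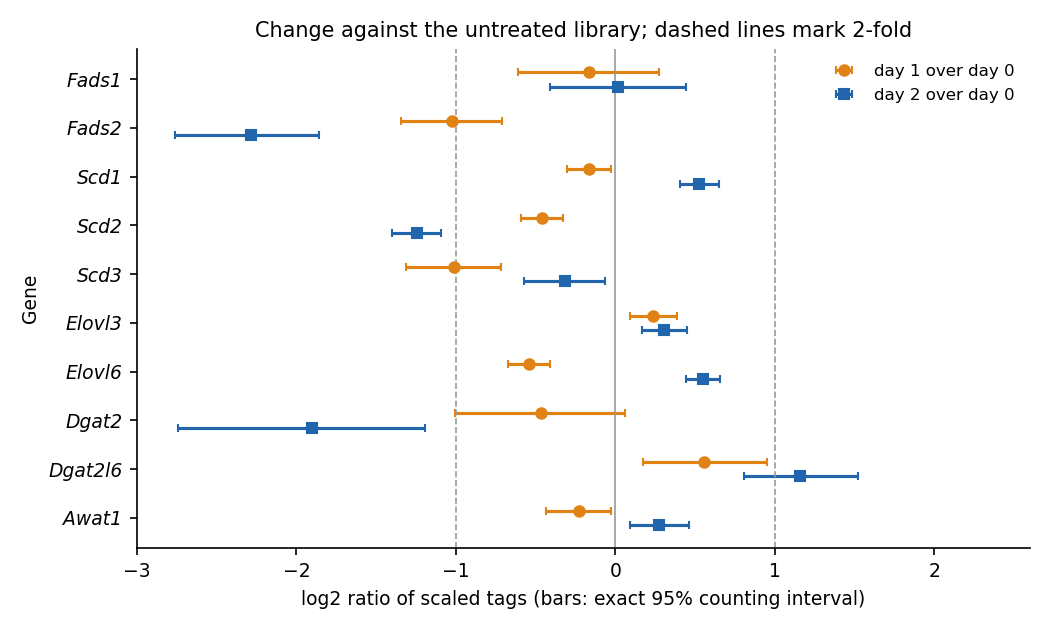
Log2 ratio of each gene to the untreated library on day 1 (circles) and day 2 (squares), with exact 95% counting intervals as bars and dashed lines at 2-fold. Fads2, Scd2 and Dgat2 lie to the left of the lower line on day 2, at -2.28, -1.24 and -1.90, and Dgat2l6 lies to the right of the upper line at 1.16.

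Elovl6 elongates palmitate to stearate, the substrate that the stearoyl-CoA desaturases act on, and Elovl3 makes very long saturated and monounsaturated chains in sebaceous glands and brown fat. Elovl6 was the most counted of the 10 genes, with 1201 tags untreated, 791 on day 1 and 1700 on day 2, or 427, 294 and 625 CPM. It was lowest on day 1 and highest on day 2, and the 3 intervals were separate. The log2 ratio was -0.54 (-0.67 to -0.41, exact test, adjusted p = 6.7e-15) on day 1 and 0.55 (0.44 to 0.66, adjusted p = 1.0e-22) on day 2, neither at 2-fold. From day 1 to day 2 it rose by 1.09 (0.97 to 1.21, exact test, adjusted p = 1.3e-71).

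The rise of Elovl6 was not shared evenly by its tags. Site 1, at chr3:129638274-129638294 and 201 bases from the end of the longest transcript, had 695, 361 and 671 tags. It was low on day 1 and at its untreated level on day 2, with a day 2 log2 ratio of -0.0019 (-0.16 to 0.15). Site 15, at chr3:129634422-129634442, had 266, 267 and 695 tags. It was level on day 1, with a log2 ratio of 0.07 (-0.18 to 0.32), and higher on day 2, with 1.43 (1.23 to 1.64). The ratio of site 15 to site 1 tags was 0.383 (0.331 to 0.441) untreated, 0.740 (0.629 to 0.869) on day 1 and 1.04 (0.930 to 1.15) on day 2, and no interval overlaps another.

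In the annotation, site 15 is an inner site of the long transcript Elovl6-201, 4053 bases from its end, and the last CATG of the shorter transcripts Elovl6-202 and Elovl6-205, 510 and 529 bases from their ends. Sites 1 to 14 summed, which lie beyond site 15 in the long transcript, had 836, 463 and 886 tags and a day 2 log2 ratio of 0.13 (-0.01 to 0.27). Site 1 dominates that sum. Within it, site 4 had 60, 28 and 101 tags and a day 2 log2 ratio of 0.79 (0.33 to 1.29), and site 2 had 28, 22 and 48 and a ratio of 0.82 (0.12 to 1.55). The ratio of site 4 to site 1 tags was 0.0863 (0.0652 to 0.112) untreated and 0.151 (0.121 to 0.186) on day 2, so the higher day 2 level was not limited to site 15. Sites 15 and above had 365, 328 and 814 tags and a day 2 ratio of 1.20 (1.03 to 1.39). Site 15 dominates that sum. Site 16 had 9, 9 and 20 tags and a day 2 ratio of 1.16 (0.0008 to 2.52). Site 17 had 23, 18 and 26 tags and a day 2 ratio of 0.22 (-0.64 to 1.10). Site 18, whose tag also matches the gene Gm11295, had 67, 34 and 73 tags and a day 2 ratio of 0.17 (-0.33 to 0.67), unlike site 15. The tags shared with Gm11295 were 4.71% of all Elovl6 tags. With site 1 alone, the log2 ratio of day 2 to day 1 was 0.88 and the call of Elovl6 as higher was lost. The cause of this difference between sites was not tested.

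**Figure D4:**
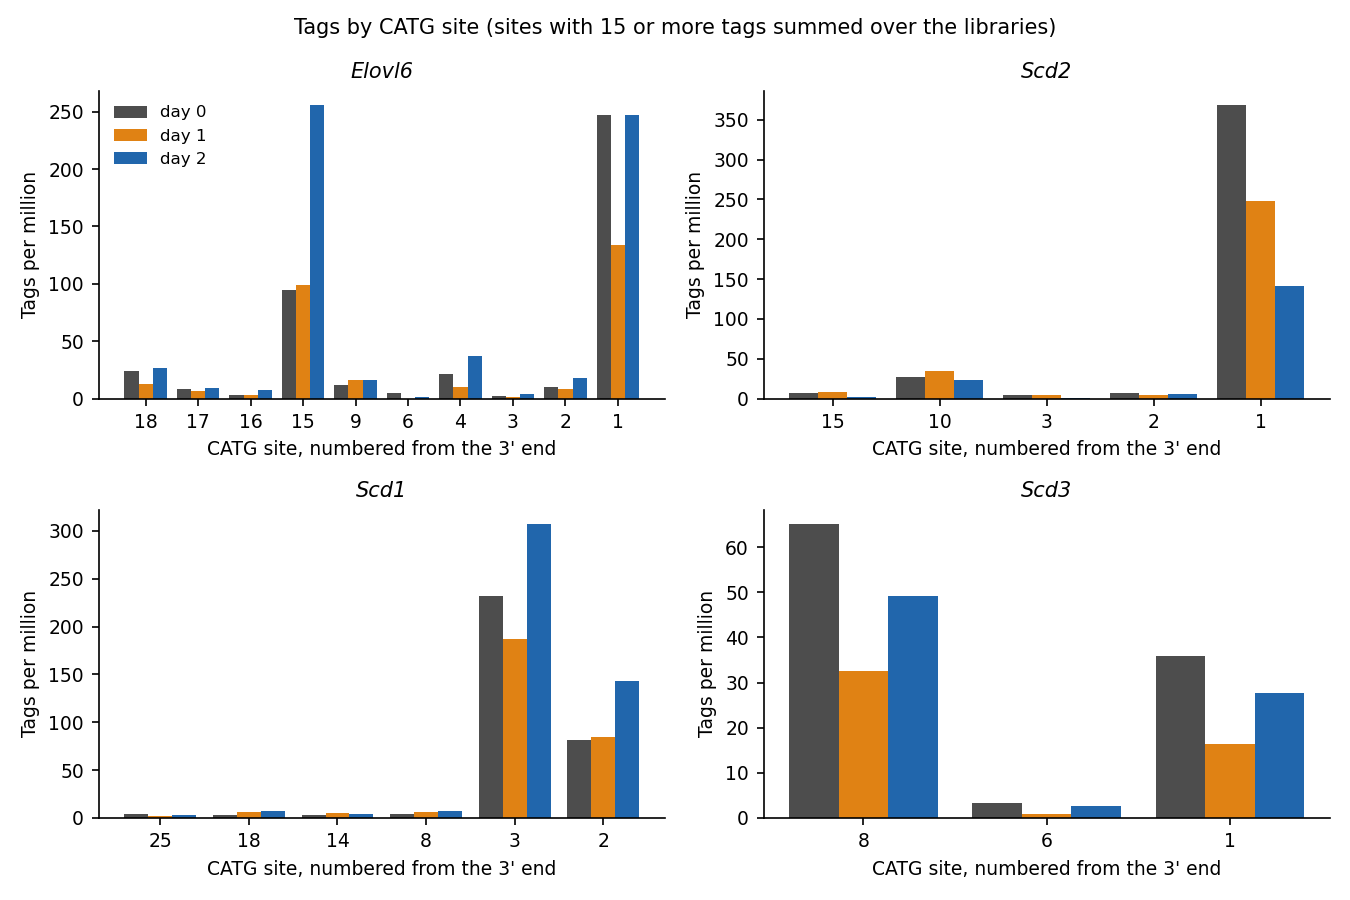
CPM at each CATG site that had at least 15 tags in the 3 libraries together, for Elovl6, Scd2, Scd1 and Scd3, with sites numbered from the 3′ end and drawn from left (5′) to right (3′), and 1 bar per library. In Elovl6 the tags of site 15 go from 266 untreated to 695 on day 2 while those of site 1 are 695 and 671, and in Scd2 site 1 holds most of the decrease.

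Elovl3 had 728 tags untreated, 823 on day 1 and 872 on day 2, or 259, 306 and 321 CPM. The untreated level was the lowest, and the day 1 and day 2 levels did not differ beyond their counting intervals. Its log2 ratio was 0.24 (0.09 to 0.38, exact test, adjusted p = 0.0074) on day 1 and 0.31 (0.17 to 0.45, adjusted p = 0.00017) on day 2, well short of 2-fold. Site 1, at chr19:46135115-46135135, had 587, 621 and 694 tags, and site 2 had 126, 161 and 146. Site 3, inside the coding sequence, had only 15, 41 and 32 tags, with a day 1 log2 ratio of 1.48 (0.63 to 2.47) against 0.14 (-0.02 to 0.31) for site 1.

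The acyltransferases split. Dgat2 catalyses the last step of triacylglycerol synthesis and was the least counted of the 10 genes, with 75, 52 and 19 tags, or 26.7, 19.3 and 6.99 CPM. Its level was lowest on day 2, and the untreated and day 1 intervals overlapped. The log2 ratio was -0.46 (-1.01 to 0.06, exact test, adjusted p = 0.21) on day 1 and -1.90 (-2.74 to -1.19, adjusted p = 1.4e-07) on day 2. From day 1 to day 2 it fell by 1.44 on the log2 scale (exact test, adjusted p = 0.00073). That last call was lost when libraries were scaled by all kept tags (log2 ratio -1.33, adjusted p = 0.0026) or by the tags in the tables (-1.31, adjusted p = 0.0027). Nearly all Dgat2 tags came from site 5, at chr7:99154431-99154451 on the minus strand and 773 bases from the transcript end, with 71, 49 and 19.

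Dgat2l6, a relative of Dgat2, and Awat1, which joins fatty acids to long-chain alcohols to make wax esters, are neighbours on the X chromosome, 26.1 kb apart. Dgat2l6 had 97 tags untreated, 137 on day 1 and 210 on day 2, or 34.5, 50.9 and 77.2 CPM. Each library was higher than the one before. Its log2 ratio was 0.56 (0.17 to 0.95, exact test, adjusted p = 0.021) on day 1 and 1.16 (0.81 to 1.53, adjusted p = 2.6e-10) on day 2. All of its tags came from 1 site, at chrX:100545832-100545852 on the plus strand. Awat1 had 448, 366 and 524 tags, or 159, 136 and 193 CPM, lowest on day 1 and highest on day 2. Its log2 ratio was -0.23 (-0.43 to -0.03, exact test, adjusted p = 0.093) on day 1 and 0.27 (0.09 to 0.46, adjusted p = 0.014) on day 2. Its site 1, at chrX:100578012-100578032, held 98.9% of its tags.

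Spread between mice is not measured by 1 library per time, and the calls depend on it. When a coefficient of variation of 0.2 between animals was assumed in edgeR's exact test, the day 2 decreases of Fads2 (adjusted p = 0.00044) and Dgat2 (adjusted p = 0.031) passed a threshold of 0.05. That rule called 0.695% of all clusters lower and 1.08% higher on day 2, 0.0941% and 0.116% on day 1, and 0.239% and 0.413% from day 1 to day 2. Scd2 (adjusted p = 0.11) and Dgat2l6 (adjusted p = 0.20) did not pass, nor did any of the 10 genes in the other library pairs. With an assumed variation of 0.4, none of the 10 passed in any pair, beside 0.00724% of all clusters lower and 0.0362% higher on day 2 and 0.0145% higher from day 1 to day 2.

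The other lipid genes were read against the same shares of all clusters called, 1.53% higher and 1.43% lower on day 1 and 3.45% and 3.08% on day 2. With 5 to 17 measured genes in a list, counts of 0 or 1 are near those shares and are no result about a list. Of 19 genes of fatty acid synthesis and elongation, 17 were measured, with at least 15 tags: 0 were called on day 1, and 1 was called higher and 0 lower on day 2, with medians of -0.13 and 0.07. The gene that rose was Hacd2, a dehydratase of the elongation cycle, with 158, 204 and 318 tags and a day 2 log2 ratio of 1.06 (0.78 to 1.34, exact test, adjusted p = 2.7e-13). Tecr, the reductase of that cycle, had 1631, 2651 and 2584 tags (0.76 and 0.71), and Hsd17b12, its ketoreductase, had 778, 478 and 566 (-0.64 and -0.41). Elovl1, an elongase of very long chains, had 576, 534 and 323 tags (-0.05 and -0.78). Fasn, the fatty acid synthase that feeds all of these enzymes, had 74, 65 and 75 tags, with ratios of -0.12 (-0.63 to 0.38) and 0.07 (-0.41 to 0.55).

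None of the 5 other desaturases was called at either time, with medians of 0.46 and 0.80. Fads3, a relative of Fads1 and Fads2, had 282, 405 and 352 tags, and Degs1, which makes the double bond of ceramides, had 95, 125 and 160. Neither showed the low day 2 level of Fads2. Among 8 measured of 9 genes that activate or import fatty acids, none was called, with medians of 0.46 and 0.28. The acyl-CoA synthetase Acsl5 had 538, 882 and 933 tags (log2 ratios 0.77 and 0.84) and Acsl3 had 109, 97 and 91 (-0.11 and -0.21). The fatty acid transport proteins Slc27a3, with 57, 97 and 90 tags, and Slc27a4, with 442, 740 and 532, were highest on day 1.

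Of 17 genes of glycerolipid, wax and sterol ester synthesis, 13 were measured: 0 were called on day 1, and 1 was called lower and 0 higher on day 2, with medians of 0.11 and 0.39. The gene that fell was Agpat2, which adds the second acyl chain to glycerol, with 533, 270 and 213 tags and a day 2 log2 ratio of -1.27 (-1.51 to -1.04, exact test, adjusted p = 1.4e-28). Agpat2 and Dgat2 were thus the acyltransferases called lower. Gpam, of the same list, had 33, 32 and 12 tags and was not called. Its day 2 log2 ratio was -1.37 (-2.50 to -0.42). Dgat1 had 189, 202 and 240 tags, with a day 2 log2 ratio of 0.39 (0.11 to 0.68). The list also holds wax and sterol ester genes. That 9 of its 13 measured genes had positive day 2 ratios therefore does not describe the route to triacylglycerol. Whether that route changed as a whole was not tested. Agpat4 had 66, 83 and 115 tags. The phosphatidate phosphatases Lpin1, with 30, 37 and 61 tags, and Lpin2, with 43, 36 and 80, were highest on day 2, and Lpin2 was called higher from day 1 to day 2 (1.13, exact test, adjusted p = 0.00059). Awat2, the other wax synthase, had 308, 248 and 441 tags, lowest on day 1 and highest on day 2 as for Awat1, with log2 ratios of -0.25 (-0.50 to -0.0046) and 0.57 (0.35 to 0.78). Soat1, which makes sterol esters, had 142, 147 and 132 tags.

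No lipogenic regulator was called among 12 measured of 14, with medians of 0.09 and -0.14. Srebf1, the transcription factor of fatty acid synthesis genes, had 358, 434 and 453 tags, with log2 ratios of 0.34 (0.13 to 0.55) and 0.39 (0.19 to 0.59). Srebf2, its relative for sterol genes, had 353, 383 and 212 tags, with 0.18 (-0.03 to 0.39) and -0.69 (-0.94 to -0.44). Of the nuclear receptors, Rxra had 505, 632 and 600 tags and Nr1h2 had 503, 405 and 446. Of 12 genes of the epidermal lipid barrier, 10 were measured and none was called, with medians of 0.22 and 0.09. They include Smpd1 with 384, 588 and 403 tags, Ugcg with 216, 278 and 324, and Alox12b with 82, 106 and 78.

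**Figure D5:**
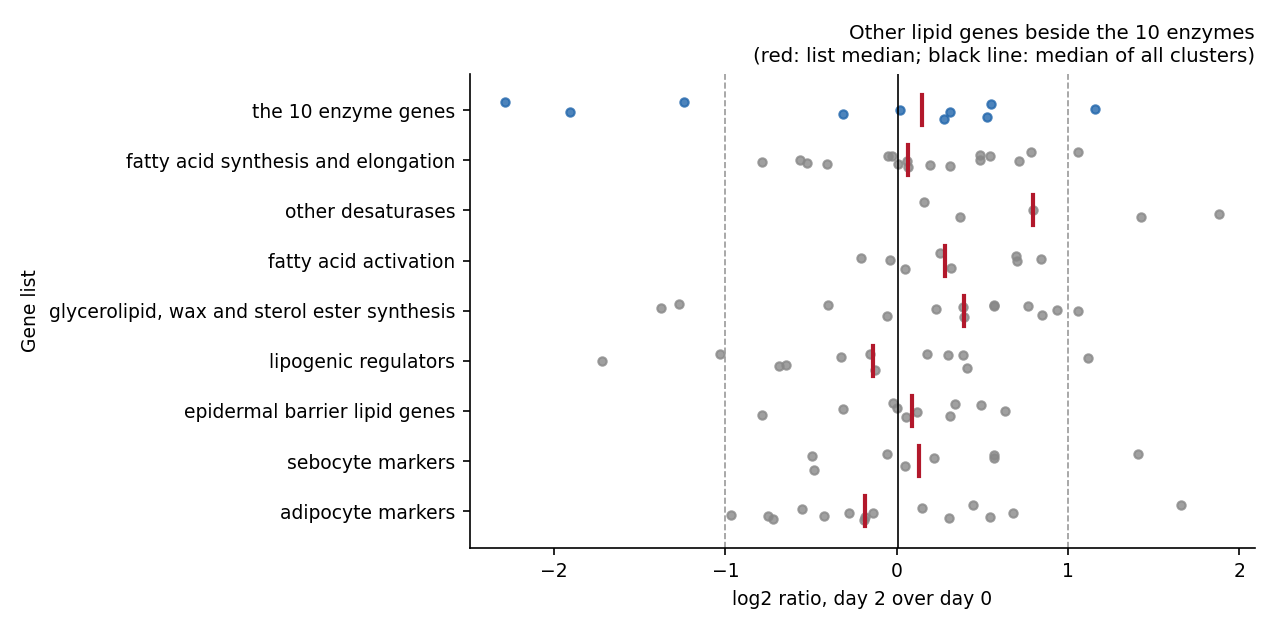
Log2 ratio of day 2 to untreated for the 10 enzyme genes and for each measured gene of the other lipid lists and of the sebocyte and adipocyte marker lists, with a red bar at the median of each list, a black line at the median of all 13812 clusters and dashed lines at 2-fold. The 10 genes spread from -2.28 to 1.16 around a median of 0.15, and the fatty acid synthesis list has a median of 0.07.

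The cell types that could carry these genes were read from marker lists. Of 12 sebocyte markers, 10 were listed and 8 measured, and none of the 8 was called in any pair. Over all clusters, 1.11% to 3.45% were called per pair and direction, so that absence of calls is near those shares and is no result about sebocytes. Their summed level was 790 CPM untreated, 553 on day 1 and 749 on day 2. Apoc1, with 1232, 715 and 846 tags, and Plin2, with 469, 287 and 527, made up most of it. Without Apoc1 the sum was 352, 287 and 437 CPM. On day 1 the sum was lower although 5 of the 8 measured markers had positive ratios, with a median log2 ratio of 0.085. The most counted markers were lower on day 1: Apoc1 (-0.72), Plin2 (-0.65) and Awat2 (-0.25). Of the positive ratios, those of Mc5r, Far2, Cidea and Soat1 had intervals that included 0. Acsbg1, with 17, 39 and 17 tags, had a day 1 ratio of 1.24 (0.40 to 2.17). On day 2 the median was 0.13. Mc5r, the melanocortin receptor of sebocytes, had only 19, 20 and 13 tags, and Cidea had 11, 11 and 29. Pparg, the nuclear receptor of sebocyte and adipocyte maturation, had no listed tag on days 0 and 1 and 2 tags on day 2. A tag seen once would not be listed. No cluster was assigned to Krt79 or Plin5. A missing assignment is not a count of 0, since 4540 clusters carry no gene name and fewer than 50% of the kept tags are in the tables.

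Of 16 adipocyte markers, 15 were measured. Their summed level was 5333 CPM untreated, 4097 on day 1 and 3725 on day 2, and Fabp4, at 9414, 5908 and 4649 tags, set that order. Without Fabp4 the sum was 1986, 1904 and 2015 CPM. The median log2 ratio of the list was 0.18 on day 1, with 8 of 15 ratios positive, and -0.18 on day 2, with 6 positive. Adipoq had 564, 399 and 324 tags, whereas Plin4 had 408, 539 and 538 and Cfd had 288, 417 and 406. Lep was the only gene of that list called higher on day 2, with 17, 46 and 53 tags, and none was called lower. Over all clusters, 3.45% were called higher and 3.08% lower, so these counts are no result about the list. The 6 dermal fibroblast markers summed to 2951, 1873 and 3273 CPM, lowest on day 1 and highest on day 2, which is also the order of Elovl6, Scd1 and Awat1. That order is not particular to fibroblasts, since the sebocyte markers without Apoc1 had it too, at 352, 287 and 437 CPM. The median log2 ratio of the fibroblast markers was -0.46 on day 1 and 0.41 on day 2, when 4 of the 6 ratios were positive. From day 1 to day 2 all 6 ratios were positive, with a median of 0.84. Macrophage markers, 8 measured of 10, summed to 262, 288 and 604 CPM, and 5 of the 8 were called higher on day 2, beside 3.45% of all clusters. Epidermis markers summed to 11466, 15433 and 14488 CPM, inner root sheath markers to 43914, 64357 and 26120, and skeletal muscle markers to 11570, 17729 and 23839. Without Krt10 the epidermis sum was 5125, 5513 and 6036 CPM, so its day 1 peak came from Krt10. The part of these cell types in the levels of the 10 genes was not tested.

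For the 3 most counted genes, the named genes with the nearest pair of day 1 and day 2 log2 ratios were sought among 5847 genes at 20 CPM or more on average. Nearest to Elovl6 was Zbtb4, with 62, 41 and 90 tags, followed by Dcn, a collagen-binding proteoglycan of dermal fibroblasts, with 1328, 896 and 1981, and Rassf9 with 72, 49 and 107. Nearest to Scd1 were Gm37087 (111, 94 and 155 tags), Map3k12 (129, 109 and 179) and Gramd4 (59, 50 and 84). Nearest to Scd2 were Sema4a (233, 161 and 94), Abcb8 (107, 76 and 44) and Fh1, the fumarase gene (154, 104 and 63). Each of these likenesses rests on 3 libraries.

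The libraries as a whole differed in composition. TMM factors were 1.03, 0.942 and 1.03. Scaling by the tags in the tables moved the median log2 ratio of all clusters from -0.022 to -0.15 between day 0 and day 1, and the calls from 211 higher and 197 lower to 129 and 346. From day 1 to day 2 the same scaling moved the median from -0.012 to 0.12 and the calls from 253 higher and 154 lower to 380 and 102. Of the 10 genes, none changed the sign of a ratio under another scaling.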

How the data were processed

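Whole mouse skin was profiled by NlaIII tag sequencing, 1 library for each of day 0, day 1 and day 2. Per the file headers, the deposited tables give per cluster a count of tags, the copy number (count) of each tag and a TPM. Aligner, genome build and tag filters: not given in the sources used here. Reads were PCR products without molecular identifiers. The smallest copy number was 2, so tags seen once are not listed. Deposited TPM served only to recover the tags kept by the authors (5666060 to 6070057), of which 45.3% to 47.1% are in the tables.

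Clusters were named by exact match of 21-base tags to GENCODE M21 transcripts (GRCm38): 15076 by tags of 1 gene, 767 by shared tags and 212 by description, with 4540 of 20595 unnamed. Where at least 80% of matched and 50% of all tags fitted a gene, it was assigned. The description column also assigned clusters.

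Counts were scaled with edgeR 4.0.16 (TMM) and compared with scipy 1.17.1, with 0.5 tags added for ratios. Ratio intervals are Clopper-Pearson at 95%. DESeq2 1.42.0 gave alternative size factors, and the tests were tested on simulated data. The members and lists were chosen with earlier results of these data known. Named from each lipid list were up to 4 genes with the largest day 1 or day 2 ratio at 20 CPM or more, plus Srebf1, Pparg, Fasn, Awat2, Soat1 and Mc5r. Gpam, Dgat1, Lep, Apoc1, Plin2, Cidea, Far2, Acsbg1, Fabp4, Adipoq, Plin4 and Cfd were chosen after their values were seen. Dose is given as mg/kg in the series text and in another unit in the sample labels.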

Additional observations from a re-analysis of the deposited data

How the results depend on the processing

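Of 264 values of the 10 genes under alternative scalings, tag choices and pseudocounts, 255 kept their direction and their side of the threshold, 8 kept the direction but lost the call and 1 changed sign. The 264 include an alternative that summed all clusters of a gene. It could change no value, because each gene had 1 cluster, so the 255 overstate how far the values were tried. The sign change was Elovl6 on day 2 against day 0, which was 0.55 with all tags and -0.0019 at the 3′-most site. Scd1 and Dgat2 had no tag at that site and so no value there. Genes called lower on day 1 numbered 2. They numbered 1 with DESeq2 size factors, with tags that match 1 gene exactly and with the most counted tag, and 0 with an assumed variation of 0.2 or 0.4. The 1 gene called higher on day 2 against day 0 became 0 under either assumed variation, and the 3 called lower became 0 at 0.4. From day 1 to day 2, the 1 gene called higher became 0 at the 3′-most site, with the most counted tag and under both assumed variations. The 2 called lower there became 1 with scaling by kept tags or by table tags, without a filter on low counts (not among the 264), at the 3′-most site and with the most counted tag, and 0 under both assumed variations.

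For the lipid lists, 407 of 432 counts were within 1.5 times the count given and 25 were not. The count given was 0 except for the calls of Hacd2, Agpat2 and Lpin2. Most of the 407 are therefore counts of 0 that stayed 0 and say little about those calls. On day 1, dropping the exact test gave 1 fatty acid activation gene higher and 1 lipogenic regulator lower in place of 0, and scaling by table tags gave 1 glycerolipid gene lower. On day 2, fatty acid synthesis counted 2 genes higher at the 3′-most site and 0 under both assumed variations, in place of 1. Glycerolipid genes called lower went from 1 to 2 without the exact test and to 0 under both assumed variations. Without the exact test, 2 other desaturases, 1 glycerolipid gene and 1 regulator were higher on day 2 and 2 regulators lower. Barrier genes counted 1 lower at the 3′-most site and with the most counted tag. From day 1 to day 2, the 1 glycerolipid gene called higher became 0 at the 3′-most site, with the most counted tag and under both assumed variations. Without the exact test, 1 gene each of synthesis, other desaturases and activation was higher and 1 each of activation, glycerolipid and regulators was lower. The cause was not tested where the list of tags or the assumed spread does not itself set the count. No paired analysis was possible because each group has 1 library. Dgat2 at 19 tags on day 2 shows the limit of depth, with an interval of -2.74 to -1.19.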
